A study of Homo sapiens with 9 samples.

Results

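The IFIT and IFITM families are 7 genes of antiviral defence: IFIT1, IFIT2, IFIT3 and IFIT5, which lie together on chromosome 10, and IFITM1, IFITM2 and IFITM3, which lie together on chromosome 11. They were found by their gene names in a table of 58174 genes, in which each of the 7 has 1 row. The names were picked from the interferon-stimulated genes after their levels in all 3 groups of these data were known. The levels, fold changes and calls of the members below are therefore descriptions, no p-value is given for them, and they are no independent evidence that the families responded.

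RNA was sequenced from 9 libraries of a line labelled HepG2, the name of a human line from a liver tumour, grown in high-glucose medium with serum. Control cells carry the genotype label WT and, by the protocol, the pLVX vector (3 libraries). The other libraries came from cells overexpressing NFE2L1 (3 libraries) or NFE2L1DC (3 libraries), a form that the protocol writes with a delta sign before the C. NFE2L1 is a transcription factor anchored in the endoplasmic reticulum that activates proteasome genes. The labels do not state whether a line is 1 clone, which promoter drives the insert or whether replicates were separate cultures, so the spread between libraries may be technical. Levels are in TPM, a unit scaled for transcript length and library total that can be compared between genes. With TPM alone, the sequencing depth of a library is unknown. In RNA from whole cultures, a change in every cell and a change in a fraction of the cells cannot be told apart, nor can fewer cells of a type and less RNA per cell.

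NFE2L1 itself was at 64.0 to 104 TPM in control libraries, 181 to 354 TPM in NFE2L1 libraries and 427 to 472 TPM in NFE2L1DC libraries. The 3 ranges did not overlap, and insert and endogenous transcripts are not separated at the level of the gene. The defining markers of the labelled cell type were absent: all 10 hepatocyte markers examined were below 1 TPM in every library, and ALB, APOB, TTR, FGB and SERPINA1 were listed at 0 in all 9. The markers thus go against the label, and the cells are called the line labelled HepG2 for that reason. Of the leukocyte markers, PTPRC, CD3E and LYZ were listed at 0 throughout and CD14 stayed below 1 TPM. The summed level of that list was 22.4 to 23.1 TPM in control, 34.1 to 41.7 TPM in NFE2L1 and 24.5 to 26.6 TPM in NFE2L1DC libraries, nearly all of it CD68. Of 4 endothelial markers none reached 1 TPM. The fibroblast list of 6, with COL1A1, PDGFRB and ACTA2 at 1 TPM or more in every library and COL1A2 at 0, summed to 45.5 to 52.0, 32.0 to 39.6 and 37.3 to 40.5 TPM. Its other genes averaged 2.73, 1.39 and 0.351 TPM (DCN) and 0.199, 0.577 and 0.25 TPM (LUM) in control, NFE2L1 and NFE2L1DC. The part of these markers in the results was not tested.

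IFIT proteins are built from tetratricopeptide repeats and bind viral RNA. IFIT1 holds RNA whose cap lacks methylation and keeps it from the ribosome, IFIT2 and IFIT3 join IFIT1 in a complex in which IFIT3 stabilises it, and IFIT5 binds RNA with a triphosphate at its start. IFITM proteins are small membrane proteins that hinder the fusion of enveloped viruses with the cell, IFITM1 mainly at the cell surface and IFITM2 and IFITM3 mainly in endosomes. Both families are classic targets of type I interferon, whose receptor signals through JAK1 and TYK2 to a transcription factor complex that holds STAT2 and IRF9. That complex binds the interferon-stimulated response element, ISRE, in promoters.

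The promoters of the members are shown because this element is the feature by which interferon is known to act on them. RefSeq promoter windows on GRCh38.p14 were found for 5 of the 7 members, with 2 starts for IFIT3, so 6 windows were searched. Neither IFIT2 nor IFITM2 was matched. The search took as ISRE core a pair of GAAA separated by any 2 bases, which reads as a pair of TTTC on the other strand, in the 250 bases before each start. All 6 windows held it, beside 3.02% of the 35116 promoters searched in the same way. As the members were picked from the interferon-stimulated genes, matches to this element could be foreseen from the choice. The count is therefore no evidence about these libraries. In the sequences, written in the direction of the gene from the far end to the base before the start, capitals mark these matches.
IFIT1, chr10:89392373-89392622, plus strand: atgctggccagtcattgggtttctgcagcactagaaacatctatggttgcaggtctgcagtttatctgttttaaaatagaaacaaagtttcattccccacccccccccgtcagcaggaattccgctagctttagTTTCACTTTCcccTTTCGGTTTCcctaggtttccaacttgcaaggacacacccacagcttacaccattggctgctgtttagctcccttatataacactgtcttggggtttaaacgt
IFIT3, upstream start, chr10:89327747-89327996, plus strand: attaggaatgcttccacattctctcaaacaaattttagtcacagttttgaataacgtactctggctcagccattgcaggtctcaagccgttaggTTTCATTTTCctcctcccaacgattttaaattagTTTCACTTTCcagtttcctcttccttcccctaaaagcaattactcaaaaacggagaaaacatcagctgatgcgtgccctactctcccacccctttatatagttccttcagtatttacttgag
IFIT5, chr10:89414318-89414567, plus strand: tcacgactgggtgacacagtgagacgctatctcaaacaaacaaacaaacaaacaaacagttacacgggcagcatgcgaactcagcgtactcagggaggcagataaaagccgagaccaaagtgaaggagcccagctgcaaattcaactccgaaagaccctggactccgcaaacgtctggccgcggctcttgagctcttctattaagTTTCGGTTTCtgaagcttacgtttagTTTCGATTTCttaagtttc
IFITM1, chr11:313790-314039, plus strand: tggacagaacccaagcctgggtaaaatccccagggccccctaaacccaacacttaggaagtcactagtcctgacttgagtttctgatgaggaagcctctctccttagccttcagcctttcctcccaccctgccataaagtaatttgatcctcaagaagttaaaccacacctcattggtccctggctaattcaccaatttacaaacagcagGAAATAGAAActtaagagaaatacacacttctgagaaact
IFITM3, chr11:320861-321110, minus strand: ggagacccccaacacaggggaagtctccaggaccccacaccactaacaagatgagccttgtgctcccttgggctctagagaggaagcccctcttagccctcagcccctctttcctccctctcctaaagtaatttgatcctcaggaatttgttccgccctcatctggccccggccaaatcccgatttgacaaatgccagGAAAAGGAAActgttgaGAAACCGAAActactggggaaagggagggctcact

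Each printed window held 2 matches except that of IFITM1, which held 1. The downstream IFIT3 start, not printed, also had 2. When the 50 bases after the start were added, IFIT5 had 3 and IFITM1 had 2 matches, the added match lying across the start, and 3.57% of all windows had any. In the IFIT genes every match read as the TTTC pair along the gene, and in IFITM1 and IFITM3 every match read as the GAAA pair. For comparison, the core TGANNNNGC of the antioxidant response element, to which NFE2L1 and its relatives bind with small MAF partners, was found in 3 of the 6 windows of 250 bases and in 35.2% of all promoters. The GAS core TTCNNNGAA, an element of the interferon gamma response, was found in 1 of 6, that of IFITM1, and in 6.57% of all. A match to these letters is not a measured binding site.

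**Figure D1:**
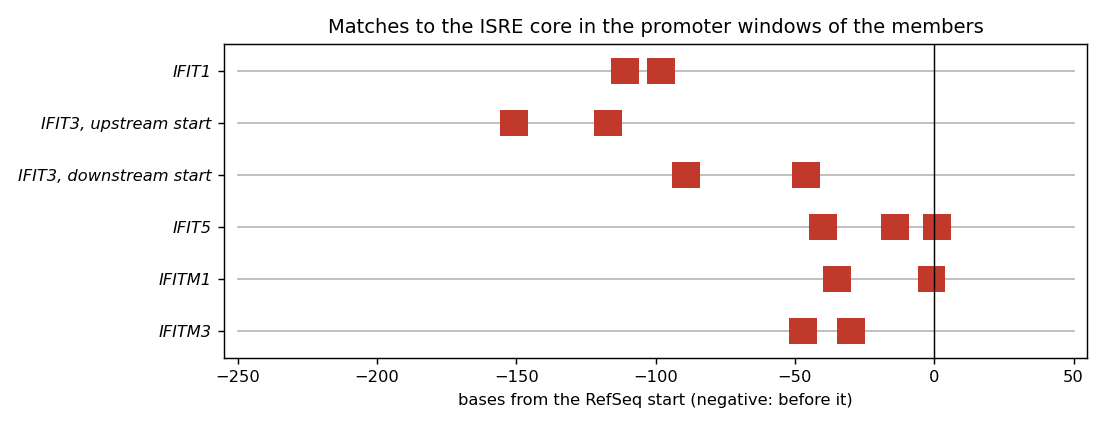
Positions of the ISRE core in the 6 promoter windows of 5 members, with distance from the RefSeq start in bases on the horizontal axis and a bar for each match. The matches of IFIT5, IFITM1 and IFITM3 sit within 52 bases before the start or across it, and those of IFIT1 and of the upstream IFIT3 start sit at 94 to 156 bases before it.

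The full NFE2L1 form was accompanied by higher levels of both families against control. All 7 members were called higher, and in each the 3 NFE2L1 libraries lay above the 3 control libraries. A member is called when the adjusted p over all 14118 genes tested with limma is under 0.05, and by that rule 7.83% of all genes were called higher and 2.57% lower, while 22.6% had every NFE2L1 library above every control library. The median log2 fold change was 2.58 for the 4 IFIT genes and 0.87 for the 3 IFITM genes, beside 0.17 over all genes tested. All 7 members passed the filter of 1 TPM in at least 3 libraries without help from the NFE2L1 libraries, IFIT2 just so, with 3 of the other 6 libraries at 1 TPM or more. A log2 fold change is the difference in mean log2(TPM + 1). The added 1 shrinks it most for the IFIT genes, whose control levels are near 1 TPM. A fold is a ratio of mean TPM.

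IFIT3, the member that stabilises IFIT1 (ENSG00000119917, GRCh38 chromosome 10, 89327894 to 89340971, plus strand), had the highest fold in that contrast. Its level was 0.283, 0.554 and 1.05 TPM in control replicates 1, 2 and 3, 10.3, 12.9 and 11.5 TPM in NFE2L1 replicates 1, 2 and 3, and 1.65, 1.46 and 1.04 TPM in the NFE2L1DC replicates. The NFE2L1 libraries stood far above all others, whereas NFE2L1DC replicate 3 lay just under control replicate 3. The fold of NFE2L1 over control was 18.3, with a log2 fold change of 2.97 (SE 0.20), and that over NFE2L1DC was 8.34, with a log2 fold change of 2.40 (SE 0.20). NFE2L1DC over control was 2.2-fold with a log2 fold change of 0.57 (SE 0.20) that was not called.

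IFIT1, the sensor of unmethylated caps (ENSG00000185745, chromosome 10, 89392546 to 89406486, plus strand), was the most abundant IFIT transcript in the NFE2L1 line. Control replicates 1, 2 and 3 were at 1.04, 1.18 and 2.42 TPM, NFE2L1 replicates at 14.4, 16.9 and 17.3 TPM, and NFE2L1DC replicates at 3.12, 3.56 and 2.12 TPM. Here too the NFE2L1 libraries formed a group of their own and the other groups overlapped through control replicate 3 and NFE2L1DC replicate 3. Against control its log2 fold change was 2.79 (SE 0.23) with NFE2L1, a fold of 10.5, and 0.65 (SE 0.23) with NFE2L1DC, a fold of 1.9 that was not called.

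IFIT2, the partner of IFIT1 and IFIT3 that is also linked to cell death (ENSG00000119922, chromosome 10, 89283694 to 89309276, plus strand), had the lowest control level of the 7 genes. It was at 0.436, 0.306 and 1.04 TPM in control, 7.0, 6.74 and 7.66 TPM in NFE2L1 and 1.23, 0.646 and 1.02 TPM in NFE2L1DC replicates 1, 2 and 3. Control replicate 3 exceeded 2 of the 3 NFE2L1DC libraries. NFE2L1 over control was 12.0-fold (log2 fold change 2.38, SE 0.20) and NFE2L1DC over control 1.63-fold (0.32, SE 0.20, not called).

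IFIT5, which binds RNA with a triphosphate at its start (ENSG00000152778, chromosome 10, 89414586 to 89421001, plus strand), moved least among the IFIT genes. Its level was 1.31, 1.28 and 3.10 TPM in control, 5.13, 4.69 and 4.90 TPM in NFE2L1 and 3.14, 2.47 and 2.45 TPM in NFE2L1DC replicates. Control replicate 3 lay among the NFE2L1DC libraries, and the NFE2L1 libraries exceeded all others. The fold over control was 2.59 with NFE2L1 (log2 fold change 1.08, SE 0.23, called) and 1.41 with NFE2L1DC (0.40, SE 0.23, not called). The NFE2L1 call was lost in 7 of 18 other settings, with log2 fold changes from 0.86 to 1.44 over all 18. They were the fits without NFE2L1 replicate 1 (1.06), 2 (1.11) or 3 (1.08), without control replicate 1 (0.95) or 2 (0.94), without the filter on low genes (1.08) and with both groups alone (1.08).

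**Figure D2:**
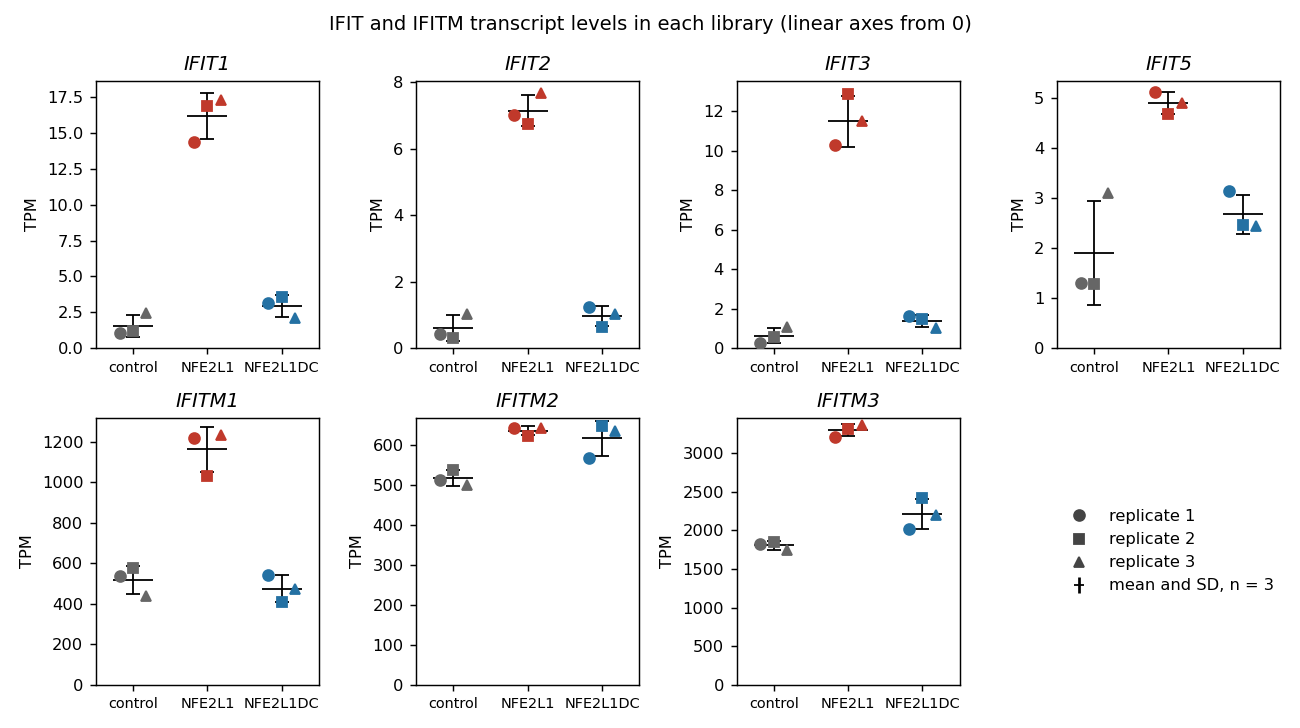
TPM of each member in every library, on linear axes from 0, with different symbols for replicates 1, 2 and 3 and bars for the mean and SD of 3 libraries. In all 7 panels the NFE2L1 libraries lie above the control libraries, and in the IFIT panels control replicate 3 is the highest control library.

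In every library each IFITM transcript was more abundant than each IFIT transcript. By mean TPM in control, IFITM3 held rank 76 of all genes, IFITM1 rank 247 and IFITM2 rank 248, while the IFIT genes held ranks from 11781 to 14792. In the NFE2L1 line IFITM3 was at rank 34, IFITM1 at rank 114 and IFITM2 at rank 210.

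IFITM3, which acts in endosomes (ENSG00000142089, chromosome 11, 319669 to 327537, minus strand), was at 1827, 1849 and 1738 TPM in control replicates 1, 2 and 3. It was at 3208, 3314 and 3363 TPM in NFE2L1 and at 2021, 2411 and 2195 TPM in NFE2L1DC replicates. The 3 groups did not overlap, in the order NFE2L1, NFE2L1DC, control. Against control its log2 fold change was 0.87 (SE 0.07) with NFE2L1, a fold of 1.83, and 0.29 (SE 0.07) with NFE2L1DC, a fold of 1.22 that was not called.

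IFITM1, the member found mainly at the cell surface (ENSG00000185885, chromosome 11, 313506 to 315272, plus strand), was at 538, 576 and 440 TPM in control. It was at 1220, 1032 and 1233 TPM in NFE2L1 and at 541, 409 and 475 TPM in NFE2L1DC replicates. NFE2L1 libraries stood apart and the other groups overlapped, with the NFE2L1DC mean the lower. Its log2 fold change against control was 1.17 (SE 0.13) with NFE2L1, a fold of 2.24, and -0.12 (SE 0.13) with NFE2L1DC, a ratio of 0.917 that was not called. IFITM1 was the only one of the 7 members with a negative estimate for NFE2L1DC against control, and it was between -0.25 and -0.02 in all 18 other settings.

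IFITM2, which also acts in endosomes (ENSG00000185201, chromosome 11, 307631 to 315272, plus strand), was at 514, 539 and 501 TPM in control. It was at 643, 624 and 644 TPM in NFE2L1 and at 568, 649 and 637 TPM in NFE2L1DC replicates. Both overexpressing groups lay above control and overlapped with each other. The fold over control was 1.23 with NFE2L1 (log2 fold change 0.30, SE 0.07, called) and 1.19 with NFE2L1DC (0.25, SE 0.07, not called). The NFE2L1 call was lost in 8 of 18 other settings, among them median-of-ratios scaling, under which the log2 fold change was 0.11 while the median of all genes went from 0.17 to 0.01. It was also lost without the abundance trend in the spread (0.30), without control replicate 1 (0.29) or 2 (0.33) and without NFE2L1 replicate 1 (0.29), 2 (0.31) or 3 (0.29).

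The full form and NFE2L1DC were then set against each other, in which control libraries count only toward the shared spread. Of the 7 members, 5 were called higher with NFE2L1 and none lower, where 0.715% of all genes were called higher and 0.0779% lower. In 6 members every NFE2L1 library exceeded every NFE2L1DC library, beside 12.4% of all genes. The called members were IFIT3, IFIT1, IFIT2, IFITM1 and IFITM3, with log2 fold changes of 2.40 (SE 0.20), 2.14 (SE 0.23), 2.06 (SE 0.20), 1.29 (SE 0.13) and 0.58 (SE 0.07). The median over all genes was 0.06. IFIT5 was 1.83-fold higher without being called (log2 fold change 0.69, SE 0.23), although its ranges in both groups did not overlap. It was called in 1 of 18 other settings, without control replicate 3 (SE 0.12), where 1.04% of all genes were called. With both groups alone (SE 0.13) it was not called. IFITM2 was at 637 ± 11.3 TPM in NFE2L1 and 618 ± 43.3 TPM in NFE2L1DC (SD, n = 3), a log2 fold change of 0.04 (SE 0.07) that was -0.02 under median-of-ratios scaling. IFITM3 lost its call under that scaling, at 0.52. The NFE2L1 transcript was at 247 ± 93.5 TPM with the full form and at 448 ± 22.9 TPM with NFE2L1DC, a log2 fold change of -0.92 (SE 0.24) that was not called.

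For NFE2L1DC against control, none of the 7 members was called in either direction, where 2.06% of all genes were called higher and 1.54% lower. IFITM2 and IFITM3 had every NFE2L1DC library above every control library, beside 13.7% of all genes. Estimates lay between -0.12 and 0.65, and their median of 0.32 stood beside 0.12 for all genes. As a description, 4 members (IFIT1, IFIT3, IFITM2 and IFITM3) and 14.5% of all genes were higher at an unadjusted limma p under 0.05. In the fit without control replicate 3, 5 members were called higher, IFIT1, IFIT3, IFIT5, IFITM2 and IFITM3, where 24.4% of all genes were called in either direction.

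**Figure D3:**
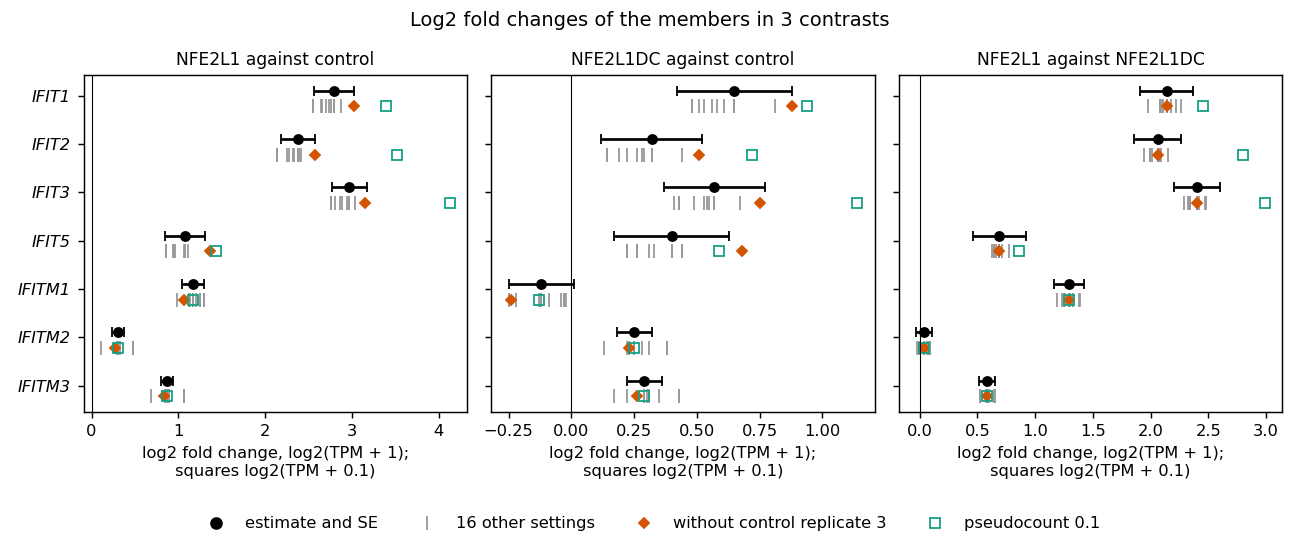
Log2 fold changes of the members in the 3 contrasts, with SE, and the estimates under 18 other settings below each, 16 of them as grey ticks. Squares mark a pseudocount of 0.1 and diamonds the fit without control replicate 3. For NFE2L1 against control every estimate is above 0, from 0.11 to 4.13, and for NFE2L1DC against control the IFITM1 estimates all lie below 0.

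Control replicate 3 differed from its fellow controls in opposite ways in the 2 families. Its level was 2.18 to 2.8 times the mean of control replicates 1 and 2 in the 4 IFIT genes. In the IFITM genes the ratio was 0.79 for IFITM1, 0.952 for IFITM2 and 0.945 for IFITM3. The IFIT transcripts have a low GC content, 37.4% to 44.2%, and the IFITM transcripts a high one, 56.1% to 60.5%, beside a median of 50.7% over the genes tested. What part GC content has in these ratios was not tested. Set against control replicate 3 alone, NFE2L1 libraries were still 5.94 to 7.15 times higher in IFIT1, 6.49 to 7.37 times in IFIT2, 9.74 to 12.2 times in IFIT3 and 1.51 to 1.65 times in IFIT5. NFE2L1DC libraries were 0.622 to 1.57 times control replicate 3 across the IFIT genes. With the trend on GC content and length removed from each library, the NFE2L1 estimate against control was lower in the IFIT genes (2.55, 2.14, 2.76 and 0.86 for IFIT1, IFIT2, IFIT3 and IFIT5) and higher in the IFITM genes (1.30, 0.48 and 1.07 for IFITM1, IFITM2 and IFITM3). With the same correction IFITM2 and IFITM3 were also called higher in NFE2L1DC, at 0.38 and 0.43, in a fit that called 5.22% of all genes in either direction, beside 3.61% without the correction.

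The make-up of each family differed between the lines. IFIT transcripts summed to 4.67 ± 2.56 TPM in control, 39.8 ± 2.6 TPM in NFE2L1 and 7.97 ± 1.26 TPM in NFE2L1DC (SD, n = 3). IFIT5 took 40.6% ± 2.03 of the sum in control and 33.8% ± 3.29 in NFE2L1DC but 12.4% ± 1.37 in NFE2L1, where its range of 11.4% to 14.0% lay below all other libraries. IFIT3 took 29% ± 1.95 of the sum in NFE2L1, beside 13.2% ± 3.76 in control and 17.2% ± 1.3 in NFE2L1DC. IFITM transcripts summed to 2840 ± 146, 5093 ± 137 and 3302 ± 169 TPM in control, NFE2L1 and NFE2L1DC, which was 0.497% to 0.524% of all TPM in the NFE2L1 libraries and 0.268% to 0.296% in control. IFITM3 held a like share in all groups, 63.6% ± 1.24, 64.7% ± 1.77 and 66.8% ± 2.51. IFITM2 went from 18.2% ± 0.436 in control to 12.5% ± 0.2 in NFE2L1, without overlap, and was at 18.7% ± 0.552 in NFE2L1DC. IFITM1 took 22.8% ± 1.77 in NFE2L1, above the 16.4% to 19.4% of control and the 11.8% to 17.3% of NFE2L1DC. These shares follow from the levels given above and are no separate evidence.

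**Figure D4:**
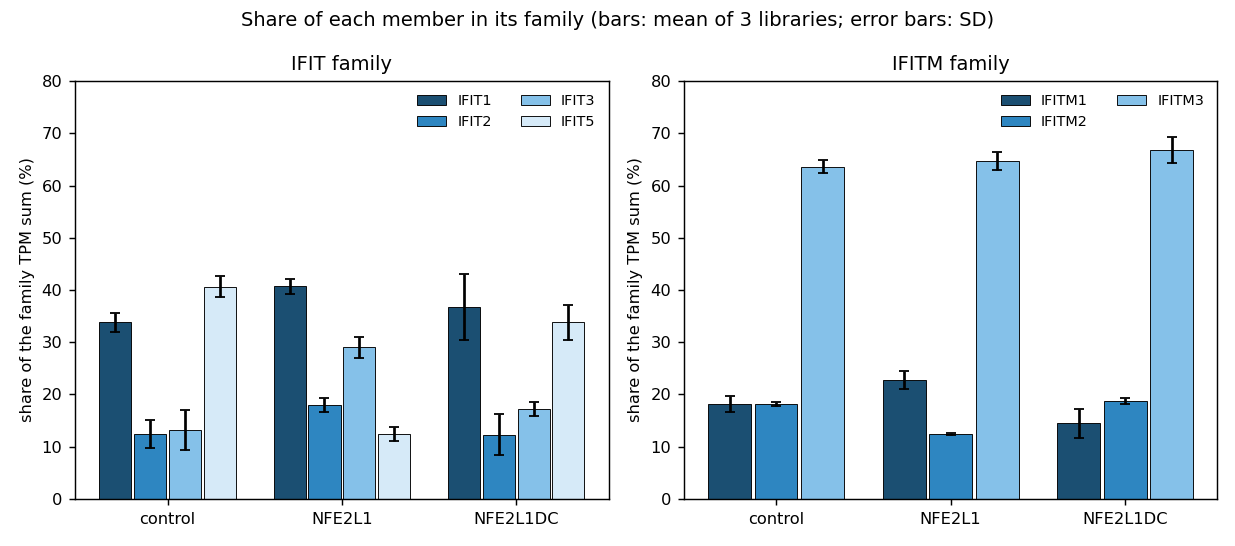
Share of each member in the TPM sum of its family, as the mean and SD of 3 libraries per group, on axes from 0. The IFIT5 bar is the tallest IFIT bar in control, at 40.6%, and the shortest in NFE2L1, at 12.4%, while the IFITM3 bar is the tallest IFITM bar in every group.

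The IFITM genes are close copies of each other, and the values depend on how reads were divided among them, a step that the labels do not describe. Of all 50-base words in the annotated transcripts of IFITM2, 34.1% occur in a transcript of another gene, 21.6% in IFITM1 and 12.9% in IFITM3. The shares were 32.0% for IFITM1 and 17.4% for IFITM3. IFITM2 and IFITM1 also overlap on the same strand in GENCODE release 29, where 32.5% of the exon bases of IFITM1 belong to IFITM2 as well. Levels of the 3 IFITM genes, and IFITM2 in particular, are therefore uncertain. The IFIT genes shared less: 7.5% of such words for IFIT2, all of them in an antisense-annotated gene listed at 0, 2.48% for IFIT3 and 1.02% for IFIT1, and IFIT5 shared none. LIPA, a lysosomal lipase gene on the opposite strand, is annotated across IFIT1, IFIT2 and IFIT3 but shares exon bases only with IFIT2, 1.6% of them. The labels do not say whether the libraries keep the strand, so antisense reads cannot be told apart. LIPA was at 40.2 ± 9.93, 57.3 ± 5.21 and 50.6 ± 5.83 TPM and was not called in any contrast. The further genes with the family names were near 0: IFIT1B, IFITM5 and IFITM10 did not reach 1 TPM in the libraries needed to be tested.

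Genes beside the clusters were examined as the 5 nearest protein-coding genes on either side and those between members. Around the IFIT cluster 7 of 11 neighbours were tested for NFE2L1 against control. STAMBPL1, a deubiquitinase gene, rose by a log2 fold change of 1.23 (5.53 ± 2.32 to 13.8 ± 1.46 TPM), and ACTA2, smooth muscle actin, fell by 0.61 (18.5 ± 0.237 to 11.8 ± 1.38 TPM). ACTA2 also fell by 0.60 with NFE2L1DC. CH25H, which makes an antiviral oxysterol and is itself an interferon-stimulated gene in other cells, was listed at 0 in all libraries. Around the IFITM cluster 7 of 10 neighbours were tested and none was called in any contrast, with estimates for NFE2L1 against control between -0.25 and 0.38. In that contrast 7.83% of all genes were called higher and 2.57% lower, so calls among 7 genes say little. The shares were 2.06% and 1.54% for NFE2L1DC against control, and 0.715% and 0.0779% for NFE2L1 against NFE2L1DC.

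The pathway upstream was read from lists of 89 genes, of which 59 were tested. These lists were drawn up with earlier results of these data known. For NFE2L1 against control 32 of the 59 were called higher and none lower. NFE2L1DC against control had 7 called higher and none lower, and NFE2L1 against NFE2L1DC had 22 called higher and none lower. Estimates that were not called went down to -0.22, -0.37 and -0.11 in these comparisons. The shares of all genes called higher and lower were 7.83% and 2.57%, 2.06% and 1.54%, and 0.715% and 0.0779% in these comparisons. Of the 59, 6 had fewer than 3 libraries at 1 TPM outside the NFE2L1 group, so that they could be tested only through it. Without these 6 the counts were 26, 7 and 17 of 53. Without control replicate 3 the count for NFE2L1DC against control was 25, of which 22 were higher, in a fit that called 24.4% of all genes. The count between the overexpressing lines was 14 without NFE2L1 replicate 2 or NFE2L1DC replicate 2 and 13 without NFE2L1 replicate 3 or NFE2L1DC replicate 3. The comparisons with control share the same 3 control libraries.

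Interferon genes themselves were scarcely seen: of 21 ligands 18 were listed at 0 in all libraries, none was tested, and IFNB1, IFNE and IFNL2 had means of at most 0.0639 TPM in any group. All 6 receptor chains were tested. IFNAR1 and IFNAR2, the receptor of type I interferon, were at 6.96 ± 1.57 and 14.0 ± 2.66 TPM in control and at 6.15 ± 0.91 and 16.4 ± 0.804 TPM in NFE2L1, and neither was called in any contrast. IFNLR1 and IL10RB, the receptor of type III interferon, were at 1.82 ± 0.203 and 31.5 ± 5.06 TPM in control and at 1.58 ± 0.0682 and 28.7 ± 3.44 TPM in NFE2L1, again without a call. IFNGR1, a chain of the interferon gamma receptor, rose with NFE2L1 from 6.57 ± 3.33 to 14.0 ± 0.384 TPM. Its partner IFNGR2 was at 38.5 ± 0.865 and 37.9 ± 3.52 TPM in those groups and was not called.

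Among the transcription factors, IRF9 and IRF7 rose with NFE2L1 against control and were higher than with NFE2L1DC. IRF9, which gives the complex its DNA binding, averaged 10.8 ± 2.49 TPM in control, 51.3 ± 13.5 TPM with NFE2L1 and 9.37 ± 2.86 TPM with NFE2L1DC. Its log2 fold change between the overexpressing lines was 2.33 (SE 0.25, called). IRF7, which amplifies interferon induction, was at 5.01 ± 0.52, 29.8 ± 2.93 and 4.31 ± 0.621 TPM, with a log2 fold change between those lines of 2.54 (SE 0.14, called). STAT2, of the same complex, was at 24.0 ± 2.38, 29.3 ± 1.98 and 19.0 ± 4.16 TPM and was not called in any contrast. The kinases JAK1 and TYK2 were not called either, at 26.4 ± 1.74 and 47.9 ± 9.57 TPM with NFE2L1DC.

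Of the feedback inhibitors, USP18, which silences the type I receptor, rose with NFE2L1 from 11.6 ± 0.352 to 22 ± 2.0 TPM and was at 13.7 ± 0.638 TPM with NFE2L1DC. SOCS3, an inhibitor of JAK kinases, rose with NFE2L1 from 25.9 ± 1.82 to 40.7 ± 0.695 TPM. Among RNA sensors, IFIH1 rose from 1.15 ± 0.284 to 5.67 ± 0.568 TPM and DDX58 from 0.13 ± 0.171 to 1.81 ± 0.367 TPM, the latter tested only through the NFE2L1 group. The adaptors MAVS and TMEM173 and the kinase TBK1 were not called in any contrast. Of 6 genes of cap formation and methylation, which make the marks whose lack IFIT1 recognises, only FAM103A1 was called with NFE2L1 against control. FAM103A1, the activator of the cap methyltransferase RNMT, went from 11 ± 0.711 to 15.3 ± 0.294 TPM. Its log2 fold change was 0.44 (SE 0.11), while estimates of the 6 ran from -0.01 to 0.61, so it was not the largest. CMTR1, the main methyltransferase that shields RNA from IFIT1, was at 29.3 ± 3.0, 30.7 ± 1.74 and 30.9 ± 1.49 TPM. None of 6 genes that act on or with IFITM proteins was called in any contrast. ZMPSTE24, a protease that cooperates with IFITM proteins, was at 12.0 ± 7.41 TPM in control and 23.1 ± 0.727 TPM in NFE2L1, and NEDD4, a ubiquitin ligase of IFITM3, at 0.83 ± 0.514 and 1.53 ± 0.535 TPM.

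Of 30 other interferon-stimulated genes 24 were tested. With NFE2L1 against control 23 were called higher, beside 7.83% of all genes. The median log2 fold change of the 24 was 1.73, beside 2.58 for the IFIT genes, 0.87 for the IFITM genes and 0.17 for all genes. With NFE2L1DC against control 7 were called higher, beside 2.06% of all genes: IFI27, IFI6, IFI44, ISG15, OAS1, OAS3 and PLSCR1. The median of the 24 was 0.43 there, beside 0.12 for all genes. Without the 5 of the 24 that could be tested only through the NFE2L1 group, 18 and 7 of 19 were called higher, with medians of 1.80 and 0.61. IFI27 had the highest difference in mean log2(TPM + 1) of the list in both comparisons with control, 5.31 and 3.11, at 1.15 ± 0.204 TPM in control, 84.3 ± 11.9 TPM in NFE2L1 and 17.5 ± 1.8 TPM in NFE2L1DC. IFI6, a protein that protects against flaviviruses, was at 47.0 ± 13.3, 669 ± 24.2 and 197 ± 2.57 TPM, and ISG15, a ubiquitin-like modifier, at 37.9 ± 4.03, 543 ± 37.2 and 86.0 ± 8.89 TPM. In 11 of the 24 tested genes of the list each NFE2L1DC library exceeded each control library, beside 13.7% of all genes, and these 3 were among them. In all 4 IFIT genes these groups overlapped, through control replicate 3 alone. OAS2, an activator of RNase L, differed between the overexpressing lines by 3.07 in mean log2(TPM + 1), at 9.28 ± 0.638 against 0.235 ± 0.222 TPM, and was tested only through the NFE2L1 group. OAS1, of the same family, was at 92.8 ± 8.76 against 20.1 ± 2.21 TPM in those lines. OAS3 had estimates of 2.45 with NFE2L1 and 0.61 with NFE2L1DC, beside 2.79 and 0.65 for IFIT1. With NFE2L1DC OAS3 was called and IFIT1 was not, and their SE were 0.11 and 0.23. IFI44 rose by 1.71 with NFE2L1DC, from 1.1 ± 0.393 to 5.79 ± 0.536 TPM, starting from a level like that of IFIT1. LY6E was the only tested gene of this list that did not rise with NFE2L1, at 310 ± 37.7 and 298 ± 41.7 TPM.

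**Figure D5:**
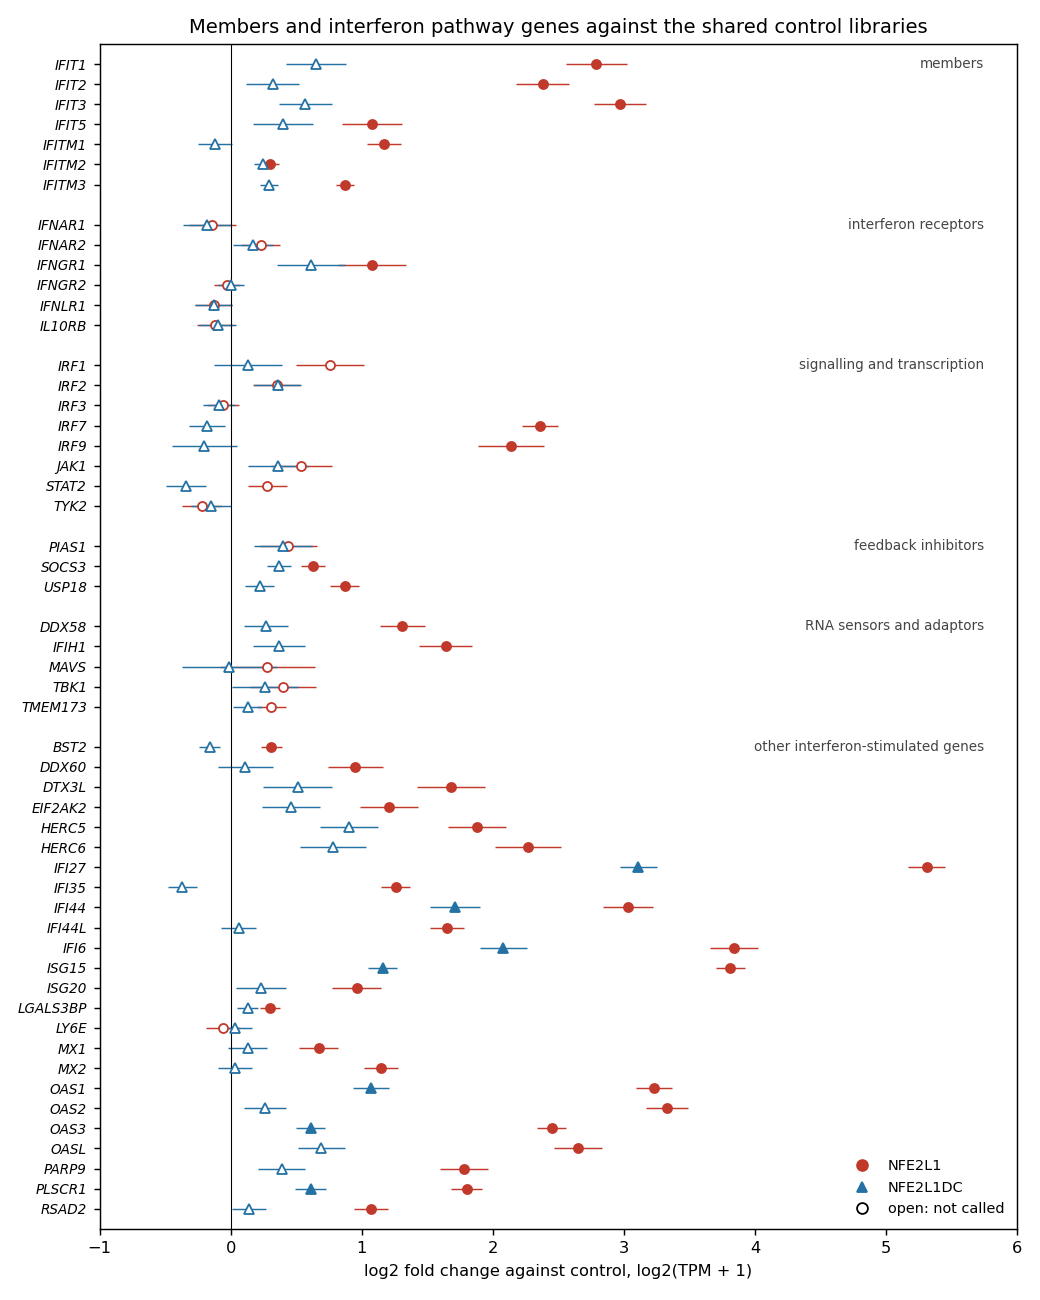
Log2 fold changes against the shared control libraries, with SE, for the 7 members and for tested receptor, signalling, inhibitor, sensor and interferon-stimulated genes, where circles are NFE2L1, triangles NFE2L1DC and filled symbols called genes. Members and most interferon-stimulated genes have the circle to the right of the triangle, and the receptor genes except IFNGR1 cluster near 0.

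The genes whose profile over the 9 libraries was most like that of a family were sought by the root mean square difference in centred log2(TPM + 1), over 8875 tested protein-coding genes with a mean of at least 5 TPM in some group. For the IFIT profile they included HERC6 (0.20), OAS3 (0.21), HELZ2 and CXCL2 (0.24 each), beside 0.16 for IFIT2, 0.23 for IFIT1, 0.31 for IFIT3 and 0.56 for IFIT5 themselves. IFIT5 thus lay farther from the family mean than these genes did, which were picked as the nearest by this same measure. The mean of a family also contains its members, so the distances of members and of other genes are not alike. For the IFITM profile they included TAP1 (0.04), CD68 (0.08), USP18 (0.10) and HLA-C (0.11), beside 0.09 for IFITM3, 0.26 for IFITM2 and 0.29 for IFITM1. TAP1, the peptide transporter of antigen presentation, went from 21.7 ± 2.2 TPM in control to 38.3 ± 0.552 TPM in NFE2L1 and 23.5 ± 0.584 TPM in NFE2L1DC.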

How the data were processed

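Total RNA-seq of 9 libraries was used as 1 table of TPM per gene that the authors deposited. CASAVA and the build GRCh38 are named in the submitters' processing notes. The aligner and quantifier are unknown: not given in the sources used here. The columns sum to 999983 to 999991.7 TPM. Values were tested as log2(TPM + 1) with limma 3.58.1 in R 4.3.3 (mean-variance trend, 1 mean per group, 6 residual degrees of freedom), on 14118 genes of at least 1 TPM in 3 or more libraries. P-values were adjusted by Benjamini-Hochberg over all of them, and a gene was called at an adjusted p under 0.05. The script was tested on simulated data, in which genes at the low levels of the IFIT family were not among those changed. Positions, GC content and overlaps come from GENCODE release 29, in which 57836 gene IDs were found, and promoters from RefSeq. Members, pathway and marker lists were chosen with earlier results of these data known. Named genes are the members, NFE2L1, ligands, receptors, called pathway genes (up to 4 per list and contrast by fold change), cluster neighbours and the 5 genes most like each family. STAT2, JAK1, TYK2, MAVS, TMEM173, TBK1, CMTR1, ZMPSTE24, NEDD4, LY6E and PLSCR1 were named outside that rule after their values were seen. Alternatives were another pseudocount, filter, scaling, trend, group set, a replicate block, a GC and length correction, and each library left out. Some genes of these lists are not reported here.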

Additional observations from a re-analysis of the deposited data

How the results depend on the processing

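Over 18 other settings, the 21 fold changes of the members gave 378 values, of which 350 kept direction and side of the threshold, 16 lost the call, 10 gained it and 2 changed sign. Both changes of sign were IFITM2 for NFE2L1 against NFE2L1DC, at -0.02 under median-of-ratios scaling and -0.01 without NFE2L1DC replicate 1, the lowest of a range up to 0.08 with 1 library left out. Members called for NFE2L1 against control numbered 5 to 7 with 1 library left out, where 3.61% to 35.8% of all genes were called, and 6 to 7 otherwise (3.18% to 13.2%). The 7 without control replicate 3 came from the fit that called 35.8%. For NFE2L1 against NFE2L1DC they numbered 5 to 6 (0.347% to 1.04%) and 4 to 5 (0.306% to 0.878%). For NFE2L1DC against control, where none was called, 2 were called with the GC and length correction (5.22% of all genes) and 2 with the replicate block and that correction (2.83%), and 0 to 5 with 1 library left out, the 5 without control replicate 3, where 24.4% of all genes were called. Pathway genes called with 1 library left out numbered 24 to 40, 5 to 25 and 13 to 24 for NFE2L1 against control, NFE2L1DC against control and NFE2L1 against NFE2L1DC, where 3.61% to 35.8%, 0.815% to 24.4% and 0.347% to 1.04% of all genes were called. The cause of these changes was not tested. The replicate block, fitted because the labels share replicate numbers, gave 6, 0 and 5 members and 27, 5 and 14 pathway genes called in those contrasts, where 6.18%, 1.4% and 0.411% of all genes were called. The 14 stood at 22 without it, and the member call lost was IFITM2 for NFE2L1 against control (0.30). Same-numbered libraries did not deviate together (r across genes from -0.189 to 0.109), and not every library correlated best with its own number. TPM keep no depth, so the counting error of the IFIT genes near 1 TPM is unknown.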
